A study of Mus musculus with 24 samples.

Results

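The tumour necrosis factor (TNF) superfamily was followed in mouse hearts through ischemia and reperfusion by means of 10 genes. They were 3 ligands (Tnf, Tnfsf9 and Tnfsf12) and 7 receptors (Tnfrsf1a, Tnfrsf1b, Tnfrsf12a, Tnfrsf10b, Fas, Cd40 and Ltbr), found by their Ensembl IDs among 46078 genes. All 10 had reads in each of the 24 libraries and passed the filter on low counts, which kept 15128 genes. In sham hearts Tnf (2 to 4 reads per library) and Tnfsf9 (4 to 5) lay under the filter's minimum count of 10. They passed it only through other groups, so their being tested depended on higher levels there. The hearts were those of wild-type C57BL/6 mice, a standard inbred strain. Their blood supply was cut off for 45 min (ischemia), with no reperfusion or with restored flow (reperfusion) for 0.5, 1, 1.5, 3, 6 or 12 h, and the controls had sham surgery. The labels give no age, no sex and no other allele or agent, each of the 8 groups held 3 libraries, and RNA came from flash-frozen heart tissue. Whether the replicates of a group were different animals is not stated, so p-values describe the spread between libraries, which may be technical.

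Ligands of the TNF superfamily are trimers on the cell surface or, once cut free by a protease, in solution. They bind receptors that either recruit TRAF adaptor proteins, which lead to the transcription factor NF-kappaB, or carry a death domain, through which caspases and the necroptosis kinases can be engaged. In the heart, TNF is made by infiltrating and resident leukocytes and by cardiomyocytes, and it lowers contractility and induces adhesion molecules and chemokines, while TWEAK (Tnfsf12) and its receptor Fn14 (Tnfrsf12a) are known from injured and remodelling muscle.

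Levels are given in CPM, the usual counts-per-million unit with TMM-scaled library totals, and differences as log2 fold changes with standard errors (SE). A gene was called in a comparison when its adjusted p was under 0.05 in edgeR's quasi-likelihood test with Benjamini-Hochberg adjustment over the 15128 genes, and every adjusted p of a gene comes from that test unless another tool is named. Libraries held 13407465 to 17181458 reads in genes, so that 3 reads, the limit that a count of 0 allows, correspond to 0.152 to 0.240 CPM. Of these reads 39.2% to 54.5% were duplicates and 19.0% to 33.2% came from the mitochondrial genome, and both shares moved with the groups. Mitochondrial reads were 20.0% to 22.3% at 0.5 h, 19.0% to 21.3% at 6 h and 20.6% to 24% at 12 h, against 28.9% to 33.2% in sham hearts. Duplicates were 44.4% to 46.1%, 41.9% to 45.5% and 39.2% to 47.7% at the same times in order, against 50.1% to 54.4% in sham hearts. Ischemia replicate 3 stood apart from its group, with 19.0% mitochondrial reads and 41.2% duplicates against 29.7% to 30.2% and 52.7% to 54.5% in the other two. Removing duplicates changed 0 calls of the 10 genes, and the part of the mitochondrial share in the results was not tested. Tnf rested on 2 to 48 reads per library and Tnfsf9 on 4 to 34, whereas Tnfrsf12a had 162 to 7715 and Tnfrsf1a 483 to 2648. The libraries carried no molecular identifiers that the labels name, so floors and intervals cover counting error alone. The cardiomyocyte markers Myh6, Actc1, Tnnt2, Tnni3, Myl2, Myl3, Ryr2 and Pln summed to 42029 to 78896 CPM per library, and the 3 libraries of 12 h (42029 to 49847 CPM) lay below those of sham (59110 to 62404 CPM). The lung epithelial markers Sftpc, Sftpa1 and Scgb1a1 summed to at most 0.141 CPM.

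Of the 10 genes, 9 were called higher than in sham hearts at some time of reperfusion, and Tnfsf12 at none. Among the 9, Tnf and Tnfsf9 could pass the filter only through groups in which they were higher than in sham. The share of all tested genes called higher at some time was not counted, and it is at least the 24.6% of 6 h. After ischemia alone 0 of the 10 genes were called, where 0.0925% of all tested genes were called. Higher calls numbered 5 of 10 at 0.5 h, 5 at 1 h, 4 at 1.5 h, 8 at 3 h, 7 at 6 h and 5 at 12 h, and no gene of the 10 was called lower against sham at any time. The share of all tested genes called higher was 7.43% at 0.5 h, 7.46% at 1 h, 4.55% at 1.5 h, 18.4% at 3 h, 24.6% at 6 h and 16.9% at 12 h, and the share called lower was 4.48%, 3.41%, 2.99%, 16.9%, 22.9% and 14.9% at the same times in order. The median log2 fold change of the 10 genes was 0.22 after ischemia, 0.46 at 0.5 h, 0.65 at 1 h, 0.62 at 1.5 h, 1.30 at 3 h, 1.30 at 6 h and 1.00 at 12 h, while the median of all tested genes stayed between -0.013 and 0.01. Across the 8 groups 9 of the 10 genes changed, against 64.3% of all tested genes, and the exception was Tnfsf12. Single libraries moved the early counts: 0.5 h had 2 calls without sham replicate 1 or 0.5 h replicate 3, and 3 without another sham library or 0.5 h replicate 1; 1 h had 3 without any sham library or 1 h replicate 2 or 3; and 1.5 h had 2 without its replicate 3. Calls over all genes, in either direction, also moved in these runs. At 0.5 h they were 603 to 904, against 1802 of 15128 with all libraries. At 1 h they were 751 to 942 without a sham library, and 1458 and 1669 without 1 h replicate 2 or 3, against 1645. At 1.5 h they were 503 without its replicate 3, against 1141. In bulk tissue, fewer cells of a type and less RNA per cell cannot be told apart, nor can more cells and more RNA per cell.

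**Figure D1:**
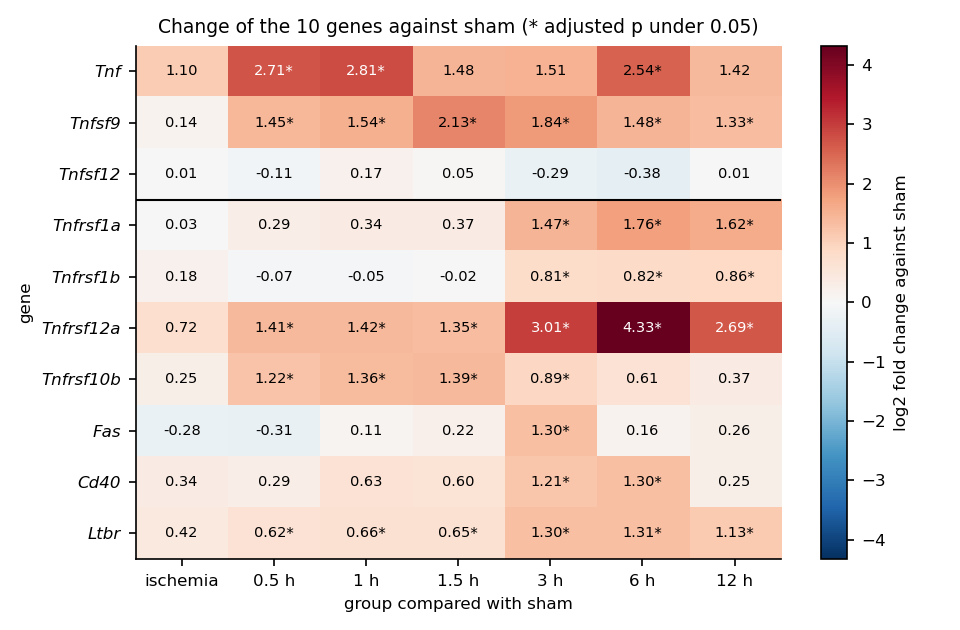
Log2 fold change of the 10 genes (rows, ligands above the line) in ischemia and at each time of reperfusion (columns), each set against sham (n = 3 libraries a group); an asterisk marks an adjusted p under 0.05 from edgeR. Tnfsf9, Tnfrsf12a and Ltbr have asterisks at every time of reperfusion, Tnf at 0.5, 1 and 6 h, and Tnfrsf10b from 0.5 to 3 h. Tnfrsf1a and Tnfrsf1b have them only from 3 h, and Tnfrsf12a holds the highest value, 4.33 at 6 h.

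The map of fold changes shows groups of time courses. Tnfsf9, Tnfrsf12a, Tnfrsf10b, Ltbr and Tnf were called at 0.5 h. Tnfrsf1a and Tnfrsf1b were called at 3, 6 and 12 h, Cd40 at 3 and 6 h, and Fas at 3 h alone. Only the test of one time against the next shows a change between times: 0 genes of the 10 were called at 0.5 h against ischemia, where 0.0331% of tested genes were called, 0 at 1 h against 0.5 h (0% of tested genes) and 0 at 1.5 h against 1 h (0.0661%). At an unadjusted p under 0.05 these 3 comparisons held 4, 1 and 0 of the 10 genes, ischemia against sham held 2, and DESeq2 and limma-voom also called 0 in each of the 4. At 3 h against 1.5 h, 5 of 10 were called higher (5.36% of tested genes were called higher). At 6 h against 3 h 1 was called higher (14.7%) and 1 lower (13.2%), and at 12 h against 6 h 2 were called lower (6.68%). Without ischemia replicate 3 the comparison of 0.5 h with ischemia had 2 calls of the 10, while its calls over all genes were 1156 of 15442, against 5 of 15128 with that library. Without 3 h replicate 1 that of 6 h with 3 h had 4, with 4515 of 15421 genes called, against 4223 of 15128.

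**Figure D2:**
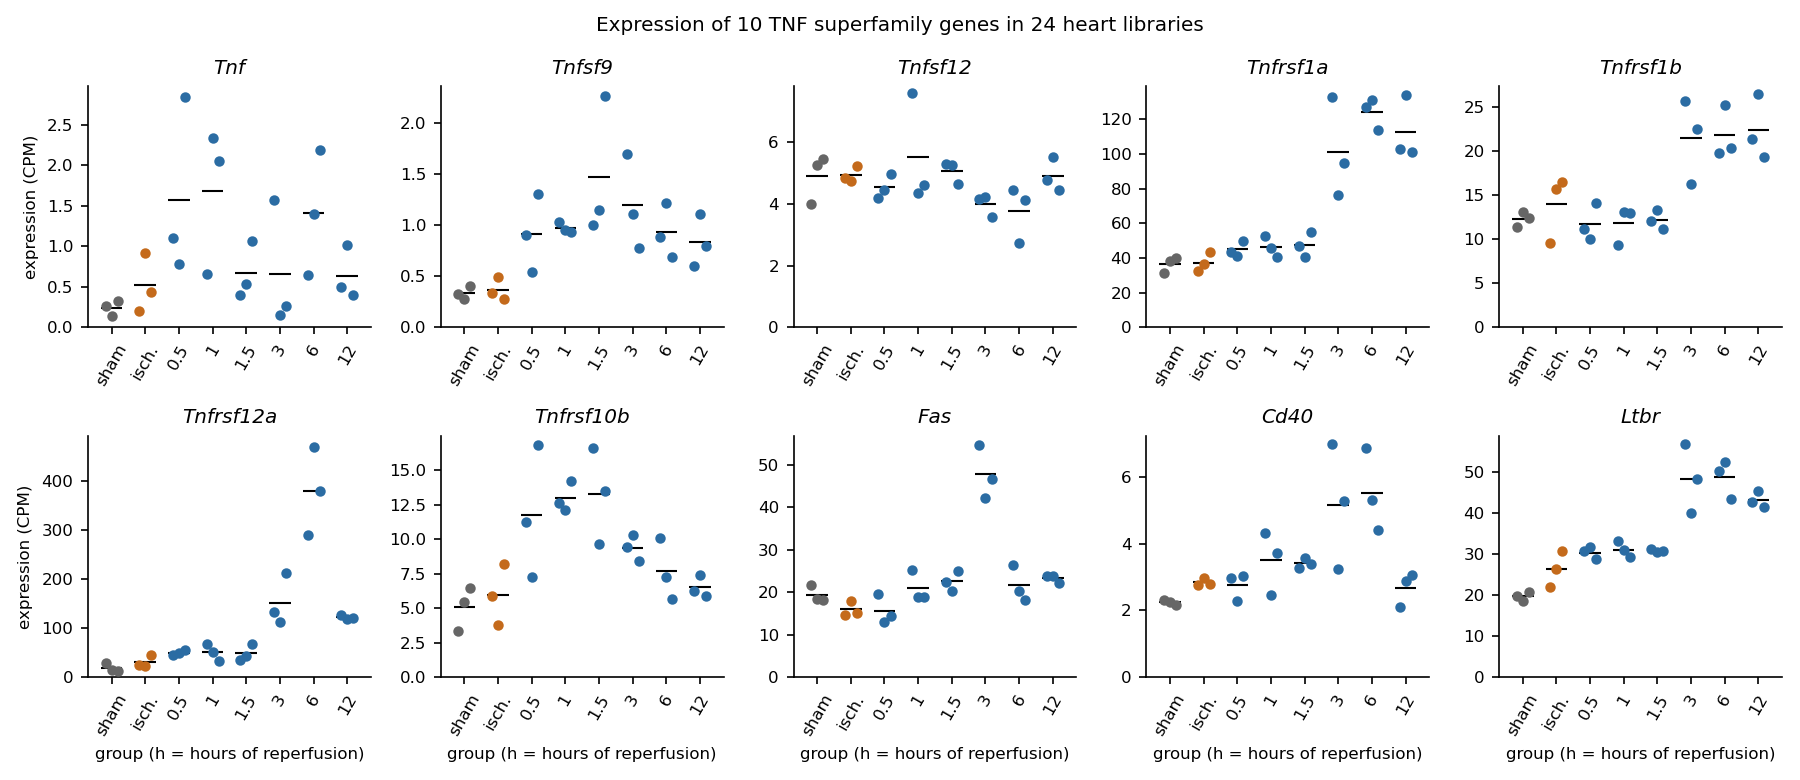
Expression in CPM (vertical axes, linear, each from 0) of the 10 genes in the 24 libraries, by group (horizontal axes, hours of reperfusion; isch. is ischemia alone); points are libraries and bars group means (n = 3). Fas stands apart at 3 h alone, where its 3 libraries hold 42.2 to 54.7 CPM, and Tnfrsf12a reaches 470 CPM at 6 h.

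Tnf encodes the founding cytokine of the family, which binds both TNF receptors. The gene lies on chr17:35199381-35202007 (minus strand, GRCm38, GENCODE vM21). Its messenger is known for rapid turnover through an AU-rich element in the 3′ untranslated region, the site at which tristetraprolin (Zfp36) binds. The stretch of that element from base 435 to base 464 of the 764 bases of the untranslated region, read from the GENCODE vM21 transcript on the coding strand, is shown because the genes that read it were measured in the same hearts. Capitals mark 4 overlapping copies of the nonamer TTATTTATT.
Tnf AU-rich element: ttaTTATTTATTATTTATTTATTATTTATT
The untranslated region held 5 such nonamers in all. Of 1201 genes with an untranslated region within 10% of that length, Tnf among them, 52 (4.33%) held at least 1. Only 2, Tnf included, held at least 5. Among the other 9 genes Tnfrsf10b held 1 nonamer in 1845 bases, a length at which 10.2% of genes hold one, and 8 held 0.

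The 250 bases before the start of Tnf, taken from RefSeq on GRCm38.p6 (chr17:35202008-35202257, minus strand), are printed beside its level because Tnf was among the first of the 10 genes to be called. Capitals mark a TATA box (TATAAA, searched on the coding strand) at -29 to -24 from the start.
Tnf promoter: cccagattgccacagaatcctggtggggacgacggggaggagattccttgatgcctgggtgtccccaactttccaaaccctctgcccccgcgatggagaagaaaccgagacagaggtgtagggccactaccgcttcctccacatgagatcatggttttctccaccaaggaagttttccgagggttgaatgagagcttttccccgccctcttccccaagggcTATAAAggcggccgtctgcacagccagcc
Motifs were searched in the 6 of the 10 genes that the promoter table holds (Tnf, Tnfrsf1a, Tnfrsf1b, Tnfrsf12a, Fas and Ltbr), and no entry was matched for Tnfsf9, Tnfsf12, Tnfrsf10b and Cd40. They were AP-1 (TGANTCA), the cAMP response element (TGACGTCA) and the kappaB motif on both strands, and the TATA box on the coding strand. They occur in 6.73%, 1.55%, 7.28% and 7.55% of 32544 promoter windows of 250 bases. The only matches were the TATA box of Tnf and 1 AP-1 match in Fas, so no match overlapped with another.

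Tnf stood at 0.257, 0.137 and 0.32 CPM in the 3 sham libraries, at 0.201, 0.918 and 0.439 CPM after ischemia, at 1.10, 0.778 and 2.84 CPM at 0.5 h, and at 0.661, 2.33 and 2.05 CPM at 1 h. It then stood at 0.401, 0.539 and 1.06 CPM at 1.5 h, 1.57, 0.148 and 0.26 CPM at 3 h, 0.65, 1.40 and 2.18 CPM at 6 h, and 0.494, 1.01 and 0.398 CPM at 12 h. All libraries of 0.5, 1, 1.5, 6 and 12 h lay above all sham libraries, and those of ischemia and 3 h overlapped with sham. Tnf rose at 0.5 h by 2.71 ± 0.80 (SE, log2, adjusted p = 0.0304), at 1 h by 2.81 ± 0.80 (adjusted p = 0.025) and at 6 h by 2.54 ± 0.81 (adjusted p = 0.012). Its differences of 1.48 ± 0.88 at 1.5 h, 1.51 ± 0.87 at 3 h and 1.42 ± 0.86 at 12 h were not called (adjusted p = 0.339, 0.188 and 0.223). Ranked by mean, from 1 h through 0.5, 6, 1.5, 3 and 12 h to ischemia and sham, every group overlapped with its neighbour. With 10 reads in sham, over 3 libraries, the calls depended on single libraries. That of 0.5 h was lost without any 1 of the 3 sham libraries (adjusted p = 0.0907, 0.106 and 0.076) and without replicate 1 or 3 of 0.5 h (0.0547 and 0.174), over a range of 8.14e-05 to 0.174 in all alternatives. That of 1 h was lost without any sham library (0.0823, 0.0989 and 0.0593) and without replicate 2 or 3 of 1 h (0.0715 and 0.0524), over a range of 2.67e-05 to 0.0989. That of 6 h was lost without sham replicate 2 (0.053) and without replicate 3 of 6 h (0.0604), over a range of 5.44e-05 to 0.0604.

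Tnfsf9 encodes the 4-1BB ligand, which costimulates T cells through Tnfrsf9, and lies on chr17:57105325-57107757 (plus strand). It stood at 0.321, 0.274 and 0.4 CPM in sham hearts, 0.335, 0.494 and 0.274 CPM after ischemia, 0.902, 0.539 and 1.30 CPM at 0.5 h, and 1.03, 0.956 and 0.932 CPM at 1 h. It stood at 1.00, 1.15 and 2.26 CPM at 1.5 h, 1.69, 1.11 and 0.78 CPM at 3 h, 0.887, 1.22 and 0.685 CPM at 6 h, and 0.604, 1.11 and 0.796 CPM at 12 h. Every library of reperfusion lay above every library of sham and of ischemia. Tnfsf9 was the only ligand of the 3 called at all 6 times of reperfusion, by between 1.33 ± 0.48 at 12 h (adjusted p = 0.0362) and 2.13 ± 0.46 at 1.5 h (adjusted p = 0.00491). The call of 3 h (1.84 ± 0.47, adjusted p = 0.00406) held in every alternative run, with a highest adjusted p of 0.0309. Those of 0.5, 1 and 12 h were lost without any 1 sham library, without replicate 1 or 3 of 0.5 h, any of 1 h, and 2 or 3 of 12 h, with adjusted p of 0.0265 to 0.217, 0.00681 to 0.131 and 0.0089 to 0.148 over the alternatives of each. The call of 0.5 h (adjusted p = 0.0497) was also lost with DESeq2 (0.0573), its size factors (0.0502), limma-voom (0.101), no filter (0.101) and a replicate block (0.0647). That of 1 h was lost with limma-voom (0.0694), no filter (0.0778) and a replicate block (0.0537). At 12 h the call was lost with DESeq2 (0.052), limma-voom (0.0719) and no filter (0.078). That of 6 h was lost without replicate 2 of sham or of 6 h (0.0549 and 0.0713, range 0.00302 to 0.0713), and that of 1.5 h without its replicate 3 (0.0621, range 0.0021 to 0.0621). Its receptor Tnfrsf9 was too low to be tested, at 0 to 0.671 CPM per library. Reads on the 192 exonic bases that it shares with the antisense gene Gm11110 are of uncertain origin, since the counting is not stated to use strand.

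Tnfsf12 encodes TWEAK, the ligand of Tnfrsf12a, and lies on chr11:69686250-69695849 (minus strand). It was the only one of the 10 genes with no call in any comparison and had an adjusted p of 0.287 across the 8 groups. It held 2.74 to 7.57 CPM in the 21 libraries of ischemia and reperfusion and 3.98, 5.27 and 5.44 CPM in sham hearts. The largest difference in size from sham was -0.38 ± 0.22 at 6 h (adjusted p = 0.162), with 4.44, 2.74 and 4.11 CPM, and neighbours in the order of its means overlapped throughout. Tnfsf12 shares 731 exonic bases on the same strand with Tnfsfm13, a gene that runs on into Tnfsf13, so part of its reads may belong to that gene.

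Tnfrsf12a encodes Fn14, the small receptor of TWEAK, and lies on chr17:23675445-23677468 (minus strand). It had the largest fold change of the 10 genes against sham at 3, 6 and 12 h. Tnfrsf12a stood at 28.1, 15.3 and 13.0 CPM in sham hearts, 25.1, 23.7 and 44.4 CPM after ischemia, 45.3, 48.9 and 56.0 CPM at 0.5 h, 67.6, 50.4 and 33.9 CPM at 1 h, and 34.7, 43.2 and 66.9 CPM at 1.5 h. It reached 133, 112 and 212 CPM at 3 h and 291, 470 and 381 CPM at 6 h, and stood at 127, 119 and 120 CPM at 12 h. From 0.5 h on, every library lay above every sham library. Tnfrsf12a rose by 1.41 ± 0.31 at 0.5 h (adjusted p = 0.00571), by 3.01 ± 0.32 at 3 h (2.54e-07), by 4.33 ± 0.33 at 6 h (7.06e-10) and by 2.69 ± 0.31 at 12 h (7.13e-07). It averaged 381 ± 89.7 CPM at 6 h and 18.8 ± 8.12 CPM in sham hearts (SD, n = 3 each). Steps between times were also called: 3 h over 1.5 h by 1.66 ± 0.30 (adjusted p = 0.00125), 6 h over 3 h by 1.32 ± 0.29 (0.00157), and 12 h against 6 h by -1.65 ± 0.29 (0.000642). Ranked by mean, 6 h stood above and apart from 3 h, 3 h overlapped with 12 h, 12 h lay apart from 1 h, and the groups below overlapped with their neighbours. The call of 1.5 h (1.35 ± 0.31, adjusted p = 0.00662) was lost without sham replicate 3 (0.0512) or its own replicate 3 (0.0728), over a range of 1.16e-17 to 0.0728.

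The promoter of Tnfrsf12a, the gene with the largest change, is shown without the 19 bases that an annotated exon covers (RefSeq, GRCm38.p6, chr17:23677469-23677699, minus strand). None of the 4 motifs matched in it, so no letters are in capitals, and the absence says only that these letters are not in this window.
Tnfrsf12a promoter: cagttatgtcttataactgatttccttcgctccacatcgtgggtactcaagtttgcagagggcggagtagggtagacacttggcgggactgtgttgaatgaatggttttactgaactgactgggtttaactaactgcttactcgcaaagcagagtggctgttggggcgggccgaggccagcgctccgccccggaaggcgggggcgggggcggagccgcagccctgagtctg

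Per kilobase of gene, using the gene lengths deposited with the counts, Tnfrsf12a was the most abundant of the 7 receptors at every time by mean. The 7 receptors together held 398 to 583 CPM per kilobase at 6 h and 53.9 to 66.4 in sham hearts. Tnfrsf12a made up 76.0% to 83.8% of that sum at 6 h and 25.1% to 44.0% in sham hearts. Its level per kilobase was 103 to 270 times that of its ligand Tnfsf12 at 6 h and 3.76 to 11.1 times in sham hearts. These values depend on the gene length used, which was 963 bases for Tnfrsf12a in the files and 1932 exonic bases in GENCODE vM21. With vM21 lengths, a choice made after seeing the data, its share of the receptor sum was 62.0% to 72.5% at 6 h and 15% to 29.2% in sham hearts, and in sham hearts its mean of 9.73 CPM per kilobase lay below the 14.1 of Tnfrsf1a. The fold changes of a gene against sham do not depend on its length.

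**Figure D3:**
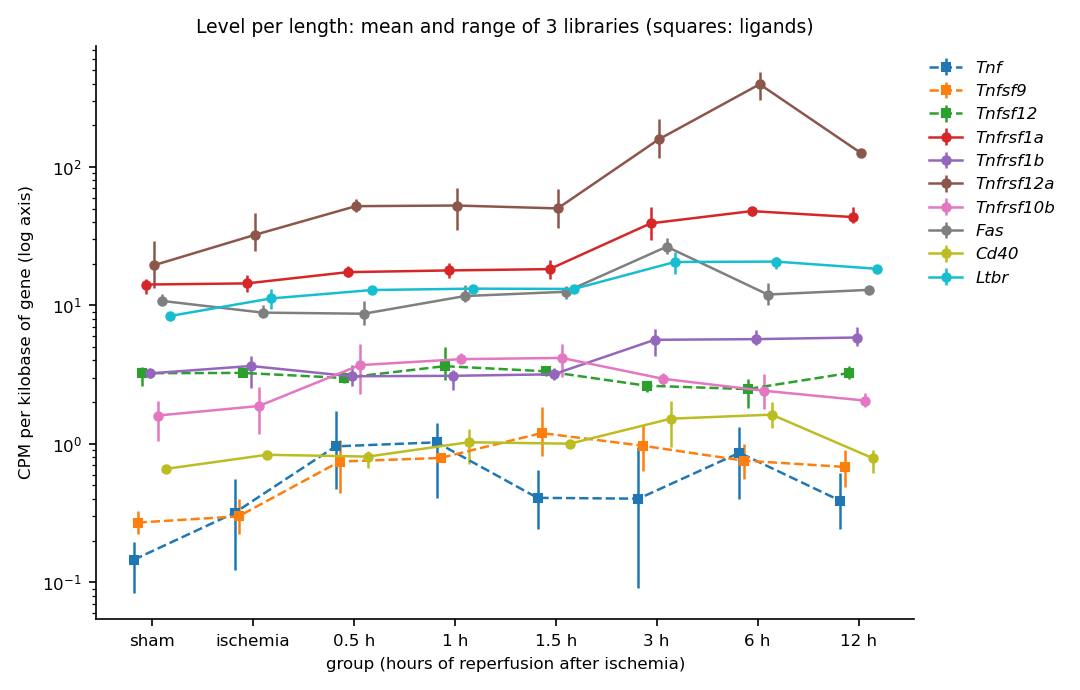
Level per gene length (CPM per kilobase, log axis) of the 10 genes by group, using the gene lengths in the files; points are means and bars the range of 3 libraries, with squares and broken lines for ligands. Tnfrsf12a averages 396 CPM per kilobase at 6 h against 19.5 in sham hearts, while its ligand Tnfsf12 averages 2.48 and 3.23.

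In the plot of level per length, Tnfrsf1a stood above Tnfrsf1b in every group. Tnfrsf1a encodes TNF receptor 1, which carries a death domain and is expressed by most cells, and lies on chr6:125349362-125362484 (plus strand). It stood at 31.3, 38.4 and 40.2 CPM in sham hearts, 32.4 to 43.3 CPM after ischemia, and 40.5 to 54.9 CPM in the 9 libraries of 0.5, 1 and 1.5 h. It then stood at 133, 76.5 and 94.5 CPM at 3 h, 127, 131 and 114 CPM at 6 h, and 103, 134 and 101 CPM at 12 h. All 9 libraries of 3 to 12 h lay above all 15 others, and in the order of the means this was the only gap between neighbours. Tnfrsf1a rose by 1.47 ± 0.17 at 3 h (adjusted p = 1.1e-06), 1.76 ± 0.17 at 6 h (2.48e-08) and 1.62 ± 0.17 at 12 h (2.17e-07), and the step of 3 h over 1.5 h was 1.10 ± 0.17 (0.000346). Between 6 h and 3 h it differed by 0.29, which was not called (adjusted p = 0.197), except without 3 h replicate 1 (0.54, adjusted p = 0.0157, range over alternatives 0.0157 to 0.601).

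Tnfrsf1b encodes TNF receptor 2, which lacks a death domain and is found mostly on leukocytes and endothelium, and lies on chr4:145213463-145246870 (minus strand). It stood at 11.4, 13.1 and 12.4 CPM in sham hearts and 9.33 to 16.5 CPM in the 12 libraries of ischemia to 1.5 h. It stood at 25.7, 16.3 and 22.5 CPM at 3 h, 19.8, 25.2 and 20.3 CPM at 6 h, and 21.3, 26.5 and 19.3 CPM at 12 h, all above the sham libraries. It rose by 0.81 ± 0.20 at 3 h (adjusted p = 0.00285), 0.82 ± 0.20 at 6 h (0.00149) and 0.86 ± 0.20 at 12 h (0.00162), and neighbours in the order of its means overlapped throughout. The step of 3 h over 1.5 h, 0.83 ± 0.20 (adjusted p = 0.0105), was lost without 3 h replicate 1 (0.0671, range 0.00017 to 0.0671). The level per kilobase of Tnfrsf1a was 7.66 to 9.45 times that of Tnfrsf1b at 6 h and 4.05 to 4.78 times in sham hearts, a difference given as a description with no test.

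Ltbr encodes the lymphotoxin beta receptor, which binds the lymphotoxins and Tnfsf14 and drives the noncanonical NF-kappaB pathway. It lies on chr6:125306571-125313885 (minus strand), 35.5 kb from Tnfrsf1a. Ltbr stood at 19.8, 18.6 and 20.8 CPM in sham hearts, 22.0, 26.4 and 30.8 CPM after ischemia, and 28.7 to 33.2 CPM in the 9 libraries of 0.5 to 1.5 h. It stood at 56.9, 39.9 and 48.4 CPM at 3 h, 50.3, 52.5 and 43.3 CPM at 6 h, and 42.7, 45.4 and 41.4 CPM at 12 h. All 21 libraries of ischemia and reperfusion lay above the 3 of sham, and neighbours in the order of the means lay apart between 12 h and 1 h and between ischemia and sham. The difference after ischemia, 0.42 ± 0.13, was not called (adjusted p = 0.323). Ltbr rose at every time of reperfusion, by 0.62 ± 0.13 at 0.5 h (adjusted p = 0.00424), 1.30 ± 0.13 at 3 h (1.19e-07), 1.31 ± 0.13 at 6 h (2.36e-08) and 1.13 ± 0.13 at 12 h (4.46e-07). These calls held in every alternative run.

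Tnfrsf10b encodes the death receptor of the mouse for TRAIL (Tnfsf10) and lies on chr14:69767472-69784411 (plus strand). It stood at 3.34, 5.41 and 6.48 CPM in sham hearts, 5.90, 3.74 and 8.17 CPM after ischemia, 11.2, 7.24 and 16.8 CPM at 0.5 h, 12.6, 12.1 and 14.2 CPM at 1 h, and 16.6, 9.64 and 13.5 CPM at 1.5 h. It then stood at 9.39, 10.3 and 8.39 CPM at 3 h, 10.1, 7.26 and 5.67 CPM at 6 h, and 6.26, 7.43 and 5.86 CPM at 12 h. The libraries of 0.5 to 3 h lay above all sham libraries, and those of 6 and 12 h overlapped with them. Tnfrsf10b rose by 1.22 ± 0.30 at 0.5 h (adjusted p = 0.011), 1.36 ± 0.30 at 1 h (0.00476), 1.39 ± 0.30 at 1.5 h (0.00397) and 0.89 ± 0.30 at 3 h (0.0228). At 6 and 12 h the differences were 0.61 ± 0.30 and 0.37 ± 0.30 (adjusted p = 0.1 and 0.367). With no filter that of 6 h was called (0.62, adjusted p = 0.0176, range 0.0176 to 0.387). No step between times was called, and neighbours in the order of its means overlapped throughout. The call of 0.5 h was lost without replicate 1 of sham (0.0711) or replicate 3 of 0.5 h (0.0879, range 8.25e-07 to 0.0879), and that of 3 h without replicate 1 of sham (0.13) or replicate 2 of 3 h (0.0643, range 0.000323 to 0.13).

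The ligand Tnfsf10 was lower at 1.5, 3 and 6 h. It held 9.70, 3.70 and 5.14 CPM at 3 h, against 17.1, 23.2 and 25.1 CPM in sham hearts, a difference of -1.80 ± 0.33 (adjusted p = 0.000174). All 3 libraries of 3 h thus lay below the sham libraries, at the time when Tnfrsf10b lay above them.

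Fas encodes a death receptor whose ligand is Fasl, and lies on chr19:34290666-34327772 (plus strand). Its promoter is shown because Fas was called at a single time and holds the only AP-1 match among the 6 promoters searched, TGAGTCA at -211 to -205 (capitals). It is printed without the 12 bases that an annotated exon covers (RefSeq, GRCm38.p6, chr19:34290409-34290646, plus strand), and a match of letters is a description, not a site of binding.
Fas promoter: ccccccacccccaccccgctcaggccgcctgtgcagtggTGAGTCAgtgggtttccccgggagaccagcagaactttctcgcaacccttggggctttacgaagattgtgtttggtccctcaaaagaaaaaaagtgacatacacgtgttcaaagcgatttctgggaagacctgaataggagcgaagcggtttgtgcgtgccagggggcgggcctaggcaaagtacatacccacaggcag
Fas stood at 21.6, 18.3 and 18.2 CPM in sham hearts, 14.7, 18 and 15.1 CPM after ischemia, 19.5, 13.0 and 14.5 CPM at 0.5 h, 25.3, 18.8 and 18.8 CPM at 1 h, and 22.4, 20.2 and 25.0 CPM at 1.5 h. It stood at 54.7, 42.2 and 46.6 CPM at 3 h, 26.4, 20.2 and 18.2 CPM at 6 h, and 23.8, 23.9 and 22.1 CPM at 12 h. The 3 libraries of 3 h lay above all 21 others, and the 3 of ischemia lay below all 3 of sham. Fas rose at 3 h by 1.30 ± 0.16 against sham (adjusted p = 2.15e-06) and by 1.08 ± 0.16 against 1.5 h (0.000206), and 6 h lay below 3 h by -1.15 ± 0.16 (1.47e-05). The difference after ischemia, -0.28 ± 0.16, was not called (adjusted p = 0.675), nor was that at 12 h, 0.26 ± 0.16 (0.228), which was called when library totals replaced TMM (0.48, adjusted p = 0.0339, range over alternatives 0.0339 to 0.419). Neighbours in the order of its means lay apart between 3 h and 12 h and between sham and ischemia.

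Its ligand Fasl was too low to be tested. Fasl had 1 read over the 3 libraries of 6 h and 14 over those of sham, a ratio of 0.0618 (exact 95% interval 0.00146 to 0.406, counting error only), and 3 reads at 12 h, a ratio of 0.165 (0.0303 to 0.59). The summed CPM of the T and NK cell markers, genes of the cells best known to make Fasl, was 1.16 to 1.60 at 6 h and 1.58 to 4.88 in sham hearts, and its part in the ratio was not tested.

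Cd40 encodes a receptor of B cells, dendritic cells, macrophages and endothelium that is engaged by Cd40lg on T cells, and lies on chr2:165055627-165072948 (plus strand). It stood at 2.31, 2.26 and 2.16 CPM in sham hearts, 2.75, 2.97 and 2.80 CPM after ischemia, and 2.27 to 4.33 CPM in the 9 libraries of 0.5 to 1.5 h. It stood at 6.99, 3.25 and 5.27 CPM at 3 h, 6.86, 5.30 and 4.42 CPM at 6 h, and 2.09, 2.88 and 3.07 CPM at 12 h. All libraries of ischemia and of 1, 1.5, 3 and 6 h lay above those of sham, and those of 0.5 and 12 h overlapped with sham. Cd40 rose by 1.21 ± 0.26 at 3 h (adjusted p = 0.00109) and 1.30 ± 0.26 at 6 h (0.000286), and at 12 h it lay below 6 h by -1.04 ± 0.25 (0.00742). At 12 h its difference from sham was 0.25 ± 0.27 (adjusted p = 0.51). In the order of the means only 1.5 h and ischemia lay apart among neighbours. Cd40lg had at most 6 reads in any group of ischemia or reperfusion and 0 in the 3 libraries of sham, and was not tested.

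Neutrophil markers lay above sham at both early and late times, and monocyte markers from 3 h on. Erythroid markers lay above sham in all libraries only after ischemia and at 0.5 h and 1 h. The 12 neutrophil markers, among them S100a8, S100a9 and Cxcr2, summed to 68.1 to 165 CPM at 6 h, 62.8 to 70.5 CPM at 12 h and 10.8 to 32.6 CPM at 3 h, against 3.70 to 6.56 CPM in sham hearts, where Ly6g had 0 reads and 11 of the 12 had reads. They already summed to 10.4 to 16.2 CPM after ischemia, 10.2 to 15 CPM at 0.5 h (Ly6g at 0 reads), 11.2 to 14.9 CPM at 1 h (Camp at 0) and 10.2 to 25.7 CPM at 1.5 h (both at 0), each above all sham libraries. The 5 erythroid markers, all with reads, held 244 to 297 CPM after ischemia, 219 to 352 CPM at 0.5 h and 212 to 333 CPM at 1 h, against 79.2 to 186 CPM in sham hearts. At 6 h they held 129 to 213 CPM and overlapped with sham. The 6 monocyte markers, among them Ly6c2 and Ccr2, summed to 108 to 138 CPM at 6 h, 115 to 147 CPM at 12 h and 45.1 to 54.9 CPM at 3 h, against 27.0 to 34.4 CPM in sham hearts. At 0.5, 1 and 1.5 h they overlapped with sham, at 24.4 to 32.1, 27.5 to 29.7 and 28.4 to 36.1 CPM. The 8 endothelial markers held 1296 to 1338 CPM at 6 h and 986 to 1071 CPM in sham hearts. The 10 macrophage markers held 333 to 399 CPM at 6 h and 303 to 329 CPM in sham hearts, and the 8 fibroblast markers 530 to 839 CPM at 6 h and 1352 to 1423 CPM in sham hearts. The 5 B cell markers (3.02 to 4.25 CPM at 0.5 h, 3.94 to 5.58 CPM at 1 h and 1.12 to 1.77 CPM at 6 h, against 0.514 to 2.88 CPM in sham hearts) and the 5 dendritic cell markers (26.5 to 30.8 CPM at 6 h, 23.2 to 27.6 CPM in sham hearts) had all members with reads in these groups. The part of these cells in the values of Tnf, Tnfsf9, Tnfrsf1b, Cd40 and the other genes was not tested.

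**Figure D4:**
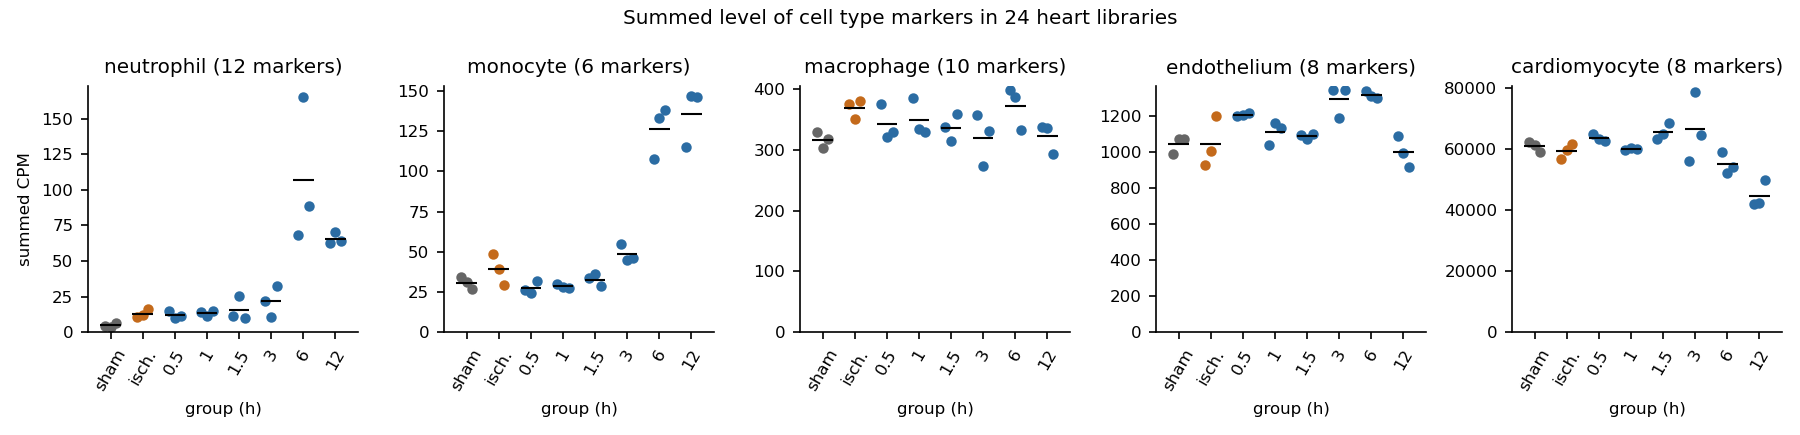
Summed CPM (vertical axes, linear, each from 0) of neutrophil, monocyte, macrophage, endothelial and cardiomyocyte marker lists in the 24 libraries, by group (horizontal axes, hours of reperfusion; isch. is ischemia alone); points are libraries and bars group means (n = 3). Neutrophil markers reach 68.1 to 165 CPM at 6 h against 3.70 to 6.56 in sham hearts, while macrophage markers span 273 to 399 over all groups.

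The plot of cell markers shows neutrophil and monocyte sums highest at 6 and 12 h. Tnfrsf12a held 119 to 127 CPM at 12 h and 291 to 470 CPM at 6 h, the neutrophil sum was 62.8 to 70.5 CPM at 12 h and 68.1 to 165 CPM at 6 h, and the monocyte sum was 115 to 147 CPM at 12 h and 108 to 138 CPM at 6 h.

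Each of the 10 genes was set beside the other 10129 genes of at least 5 CPM by Pearson's r of log2 CPM over the 24 libraries, which share the time course and so give high values to many genes. These correlations are descriptions with no test. Closest to Tnfrsf12a were Rhbdf1 (r = 0.975), Pelo (0.974) and Tubb6 (0.97). Closest to Tnfrsf1a were Tead3 (0.977), Map2k3 (0.961) and Cyb561 (0.96), and closest to Ltbr were Rnps1 (0.945), Chmp4b (0.945) and Dbn1 (0.944). For Tnfrsf10b they were Ptger4 (0.887), Btg2 (0.882) and Jun (0.882), for Tnfsf9 Dnajb1 (0.858), Socs3 (0.854) and Cebpd (0.849), and for Fas Sgms1 (0.875), Asb4 (0.872) and Icosl (0.86). For Tnfrsf1b they were Csf2rb (0.9), Lsg1 (0.9) and Shroom3 (0.883), and for Cd40 Nus1 (0.903), Rell1 (0.857) and Casp4 (0.846). The values were lower for the remaining pair, led by Rgs16 (0.799), Taf15 (0.691) and Cxcr4 (0.682) for Tnf and by Mat2b (0.791), Mrps17 (0.774) and Ift46 (0.77) for Tnfsf12.

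Among the other ligands of the superfamily 6 of 15 were high enough to be tested, and calls were in both directions. None was called after ischemia, at 0.5 h or at 1 h in edgeR's test (0, 1 and 0 at an unadjusted p under 0.05). Over all tested genes 0.0925% were called after ischemia in either direction. At 0.5 h 7.43% were called higher and 4.48% lower, and at 1 h 7.46% and 3.41%. The counts of these 6 genes were not tested against the shares of all genes. Later, 0 were called higher and 1 lower at 1.5 h, 0 and 1 at 3 h, 1 and 2 at 6 h, and 2 and 0 at 12 h. Over all tested genes 4.55% were called higher and 2.99% lower at 1.5 h, and 18.4% and 16.9% at 3 h. These shares were 24.6% and 22.9% at 6 h and 16.9% and 14.9% at 12 h. The median log2 fold change of the 6 was -0.36 at 6 h and -0.16 at 12 h. Tnfsf14 (LIGHT), a ligand of Ltbr, held 0.71, 2.80 and 1.12 CPM at 6 h, against 0, 0 and 0.16 CPM in sham hearts. Tnfsf14 had 76 reads at 6 h and 2 in sham, a ratio of 32.9 (exact 95% interval 8.79 to 276), and 35 reads at 12 h, a ratio of 13.4 (3.45 to 115). Ltb, the other subunit of the membrane lymphotoxin that Ltbr binds, had 34 reads at 12 h and 3 in sham, a ratio of 8.70 (2.74 to 44.3). Its call (adjusted p = 0.0209) was lost without replicate 2 or 3 of sham (0.066 and 0.0815) or replicate 2 of 12 h (0.102), over a range of 0.00848 to 0.102. Tnfsf14 and Ltb, the only other ligands called higher against sham, could pass the filter on low counts only through groups other than sham. Eda, the ectodysplasin of skin appendages, fell at 6 h by 1.42 ± 0.29 (a log2 fold change of -1.42, adjusted p = 0.000287).

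Among the other receptors 16 of 21 were tested. In edgeR's test 0 were called after ischemia and at 0.5 h (0 and 3 at an unadjusted p under 0.05). Of all tested genes 0.0925% were called after ischemia in either direction, and at 0.5 h 7.43% were called higher and 4.48% lower. Calls were 0 higher and 1 lower at 1 h, 0 and 3 at 1.5 h, 1 and 4 at 3 h, 5 and 1 at 6 h, and 4 and 2 at 12 h. Over all tested genes the shares called higher and lower were 7.46% and 3.41% at 1 h and 4.55% and 2.99% at 1.5 h. They were 18.4% and 16.9% at 3 h, 24.6% and 22.9% at 6 h, and 16.9% and 14.9% at 12 h. The median log2 fold change of the 16 was -0.23 at 3 h, 0.27 at 6 h and 0.42 at 12 h. Relt, a receptor with no settled ligand, held 10.9, 21.9 and 14.5 CPM at 6 h, against 4.43, 2.12 and 2.48 CPM in sham hearts, a rise of 2.37 ± 0.26 (adjusted p = 1.44e-07). Tnfrsf19, an orphan receptor of epithelium and other tissues, held 0.296, 0.488 and 0.436 CPM at 6 h, against 2.18, 4.32 and 4.96 CPM in sham hearts, a difference of -3.20 ± 0.43 (2.09e-06). In both genes the libraries of 6 h and sham did not overlap.

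Tnfrsf22, one of the decoy receptors that the mouse has for TRAIL, held 1.2, 0.813 and 0.975 CPM at 3 h, against 3.21, 2.88 and 3.20 CPM in sham hearts (-1.61 ± 0.27, adjusted p = 7.48e-05). All 3 libraries of 3 h lay below those of sham, and 6 h lay above 3 h by 1.93 ± 0.26 (1.07e-05). Tnfrsf18, the receptor GITR, had 0.0735, 0.239 and 0.435 CPM at 1 h and 1.28, 1.92 and 1.12 CPM in sham hearts (-2.46 ± 0.67, adjusted p = 0.0201), a call lost without sham replicate 2 (0.0828) or 1 h replicate 1 or 2 (0.112 and 0.0573), over a range of 0.000393 to 0.112. Tnfrsf11b, the soluble decoy osteoprotegerin, had 0.439, 1.52 and 0.739 CPM at 12 h and 0.0642, 0.342 and 0 CPM in sham hearts (2.63 ± 0.83, adjusted p = 0.0174), a call lost without sham replicate 1 or 3 (0.0811 and 0.0788) or 12 h replicate 2 (0.115), over a range of 0.00666 to 0.115. Tnfrsf26 was higher at 6 h by 1.55 ± 0.49 (adjusted p = 0.012), a call lost without 6 h replicate 2 (0.0713, range 0.00565 to 0.0713).

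**Figure D5:**
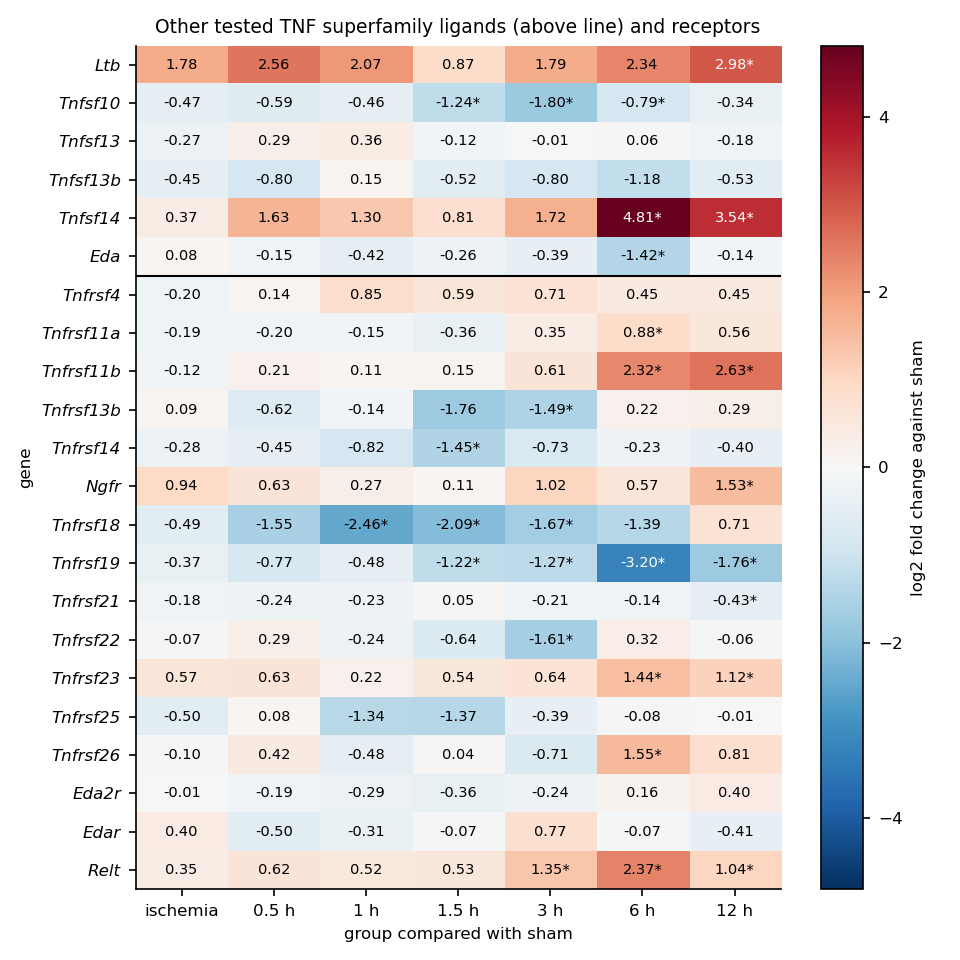
Log2 fold change of the 6 other ligands (above the line) and 16 other receptors of the superfamily that were tested (rows) in ischemia and at each time of reperfusion (columns), each set against sham (n = 3 libraries a group); an asterisk marks an adjusted p under 0.05 from edgeR. Rows such as Tnfrsf19 (-3.20 at 6 h) and Tnfsf10 (-1.80 at 3 h) are blue, Relt (2.37 at 6 h) is red, and the fitted values of Tnfsf14 and Ltb rest on 2 and 3 reads in sham.

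The genes that act on TNF and its receptors were counted by their roles, and the plot of the other ligands and receptors has no part in these counts. Of 6 genes that shed TNF or control its shedding, calls numbered 3 higher and 0 lower at 3 h, 4 and 1 at 6 h, and 3 and 1 at 12 h, with medians of 0.48, 0.59 and 0.27. Among all tested genes 18.4% were called higher and 16.9% lower at 3 h. The shares were 24.6% and 22.9% at 6 h, and 16.9% and 14.9% at 12 h. Rhbdf1, an inactive rhomboid that carries the sheddase ADAM17, held 77.8, 88.0 and 81.8 CPM at 6 h, against 28.6, 28.2 and 29.8 CPM in sham hearts, and rose by 1.51 ± 0.13 (adjusted p = 2.98e-09). Timp3, an inhibitor of ADAM17, rose by 1.08 ± 0.24 at 3 h (0.00108), Rhbdf2 by 0.84 ± 0.15 at 3 h (0.000192) and Frmd8, which stabilises the complex, by 0.88 at 12 h (0.00386). Adam17 itself differed by -0.40 ± 0.13 at 12 h (0.0188), a call lost with library totals (0.315), with no filter (0.0591) and without sham replicate 1 or 12 h replicate 1 or 2 (0.136, 0.0904 and 0.0517), over a range of 0.0102 to 0.315.

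Of 6 genes that bind AU-rich or stem-loop elements of messengers such as that of Tnf, 1 was called higher after ischemia, 4 at 0.5 h, 4 at 1 h, 3 at 1.5 h, 5 at 3 h, 5 at 6 h and 3 at 12 h, and 0 lower. The shares of all tested genes called higher were 7.43%, 7.46%, 4.55%, 18.4%, 24.6% and 16.9% at the times of reperfusion in order. After ischemia 0.0925% were called in either direction, and 2.99% to 22.9% were called lower at the times of reperfusion. Zfp36 (tristetraprolin), which marks messengers with the TTATTTATT nonamer for decay, held 594, 492 and 402 CPM at 1 h, against 43.3, 55.9 and 54.3 CPM in sham hearts. It rose by 3.28 ± 0.29 (adjusted p = 3.3e-07) at 1 h, the time of the highest mean of Tnf, and by 1.60 ± 0.28 after ischemia alone (0.0105). Zc3h12a (Regnase-1), an endonuclease, rose by 2.61 ± 0.30 at 3 h (8.45e-07), Zfp36l1 by 1.87 at 1.5 h (4.41e-06), Zfp36l2 by 1.28 at 6 h (9.05e-06) and Rc3h1 (roquin) by 0.86 at 3 h (3.15e-05).

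Of 20 adaptors and kinases downstream of the receptors, 5 were called higher and 2 lower at 3 h and likewise at 6 h, and 4 and 1 at 12 h, with medians of 0.05, 0.12 and 0.11. Among all tested genes 18.4% were called higher and 16.9% lower at 3 h, and 24.6% and 22.9% at 6 h. At 12 h the shares were 16.9% and 14.9%. At 6 h the part of this list called higher was close to that of all tested genes. Ripk1, the kinase that the TNF receptor 1 complex recruits, held 28.4, 35.3 and 24.7 CPM at 3 h, against 7.90, 7.95 and 8.07 CPM in sham hearts, and rose by 1.88 ± 0.22 (adjusted p = 9.02e-07). Birc3 (cIAP2), the ubiquitin ligase that modifies it, rose by 1.67 ± 0.18 at 3 h (2.89e-07). Tradd, the adaptor between receptor and Ripk1, rose by 1.23 at 12 h (0.0025), Map3k14 (NIK) by 1.05 at 3 h (0.00392) and Traf5 by 1.04 at 12 h (0.00531). Of 10 inhibitors of the pathway, 2 were called higher at 0.5 h, 2 at 1 h, 3 at 1.5 h, and 7 at each of 3, 6 and 12 h, and 0 lower, with medians of 0.88, 0.82 and 0.86 at the last 3 times. Higher calls over all tested genes were 7.43% at 0.5 h, 7.46% at 1 h and 4.55% at 1.5 h. They were 18.4%, 24.6% and 16.9% at 3, 6 and 12 h. Lower calls over all tested genes were 4.48%, 3.41% and 2.99% at 0.5, 1 and 1.5 h, and 16.9%, 22.9% and 14.9% at 3, 6 and 12 h. Tnfaip3 (A20), the ubiquitin-editing enzyme, rose by 2.55 ± 0.35 at 1.5 h (2.66e-05), with 27.7, 29.2 and 20.8 CPM against 4.17, 5 and 4.08 CPM in sham hearts. Nfkbie rose by 1.79 at 12 h (0.000385), Tnip2 by 1.50 at 3 h (1.26e-06), Otulin by 1.16 at 6 h (8.51e-05) and Tnip1 by 1.15 at 12 h (0.000166).

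Of 10 genes of the death arm, 0 were called after ischemia, at 0.5 h, 1 h or 1.5 h by edgeR (0, 1, 2 and 0 at an unadjusted p under 0.05). Over all tested genes 0.0925% were called after ischemia in either direction. At 0.5, 1 and 1.5 h 7.43%, 7.46% and 4.55% were called higher, and 4.48%, 3.41% and 2.99% lower. Such small shares leave few calls to be found among 10 genes. Calls were 1 higher and 2 lower at 3 h, 5 and 3 at 6 h, and 1 and 1 at 12 h, with medians of 0.14, 0.49 and 0.09. Among all tested genes 18.4% were called higher and 16.9% lower at 3 h. The shares were 24.6% and 22.9% at 6 h, and 16.9% and 14.9% at 12 h. Ripk3, the kinase of necroptosis, held 10.8, 7.54 and 9.69 CPM at 3 h, against 3.08, 2.19 and 4 CPM in sham hearts, and rose by 1.61 ± 0.26 (adjusted p = 5.1e-05). Its substrate Mlkl rose by 0.70 ± 0.22 at 6 h (0.0118), but without replicate 2 of sham (0.0626) or replicate 1 of 6 h (0.057) the call was lost, over a range of 0.00466 to 0.0626. Casp8, the initiator caspase of death receptors, rose by 0.70 ± 0.17 at 6 h (0.00164). Fadd, the adaptor between Fas and Casp8, held 6.86, 6.95 and 8.41 CPM at 6 h, against 12.8, 14.7 and 13.2 CPM in sham hearts, and fell by 0.87 ± 0.16 (log2 fold change -0.87, adjusted p = 0.000108).

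Of 16 genes that TNF is known to induce through NF-kappaB, 1 was called higher after ischemia, 8 at 0.5 h, 7 at 1 h, 9 at 1.5 h, 12 at 3 h, 12 at 6 h and 11 at 12 h, and 2 were called lower, both at 12 h. Their median log2 fold change was 0.36, 0.64, 0.83, 0.85, 1.25, 1.78 and 1.40 at these times in order. The shares of all tested genes called higher were 7.43%, 7.46%, 4.55%, 18.4%, 24.6% and 16.9% from 0.5 h to 12 h. At 12 h 14.9% were called lower, and after ischemia 0.0925% were called in either direction. From 0.5 h to 6 h 4.48%, 3.41%, 2.99%, 16.9% and 22.9% were called lower. Ptx3, a soluble pattern recognition protein, held 157, 184 and 78.2 CPM at 6 h, against 0.385, 0.411 and 0.4 CPM in sham hearts, and rose by 8.43 ± 0.61 (adjusted p = 3.64e-10). Ccl2, the monocyte chemokine, held 62.5, 122 and 102 CPM at 6 h, against 1.09, 1.23 and 0.48 CPM in sham hearts (6.63 ± 0.53, 1.39e-09). The neutrophil chemokine Cxcl1 rose by 4.34 at 1.5 h (1.93e-07), the endothelial selectin Sele by 4.06 at 3 h (4.2e-08) and the NF-kappaB cofactor Bcl3 by 3.79 at 3 h (2.3e-07). Other signals than TNF also induce these genes, and a share due to TNF was not measured.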

How the data were processed

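The authors deposited whole-number read counts of 46078 Ensembl genes per library, in columns with and without duplicates and multiply mapped reads, beside gene lengths, per the file headers. The submitters' processing notes name the mm10 build. How reads were aligned, counted and assigned by strand, and with which annotation, is not given in the sources. The unique counts with duplicates kept were used as deposited. Symbols were matched for 45143 IDs (98.0%).

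Counts were tested with edgeR 4.0.16 (R 4.3.3): 1 fit of 24 libraries with 1 coefficient per group, TMM factors (0.858 to 1.16), filterByExpr (minimum count 10, minimum total 15), 16 residual degrees of freedom, biological coefficient of variation 0.156, and Benjamini-Hochberg adjustment over 15128 genes. The test was run on simulated data with known changes first. Comparisons were 7 with sham, 6 with the time before and 1 across the groups. An SE is the size of the log2 fold change divided by the square root of the F statistic. Where a group had 1 to 3 reads, a ratio with an exact 95% interval is given. No pair of replicates agreed within sampling noise (chi-square over degrees of freedom 7.28 to 66.6), so none was treated as a library deposited again. This does not show that they came from different animals.

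The 10 genes and all lists were chosen with earlier results of these data known. From each pathway list the text names the called genes with the largest change against sham, up to 6 for ligands and receptors and 5 otherwise, and for each of the 10 genes the 3 most alike of at least 5 CPM. A gene of the death arm that this rule names is not reported here. Alternatives were other scalings, filters, read sets and tools (DESeq2 1.42.0, limma-voom 3.58.1), only the groups compared, a replicate block, and each library left out in turn. The same alternatives for the genes of the pathway lists, and other gene lengths, were added after seeing the data.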

Additional observations from a re-analysis of the deposited data

How the results depend on the processing

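Counts of the 10 genes called against sham moved with several settings. At 0.5 h 5 were called, and 3 with a minimum count of 50 or with limma-voom, where Tnf and Tnfsf9 were either not tested or not called. At 1 h 5 were called, and again 3 in these settings. Ischemia against sham held 0, and 1 (Tnfrsf12a, 0.72, adjusted p = 0.0003 in a range of 0.0003 to 0.98) with no filter. The comparison of 0.5 h with ischemia held 0, and 2 (Tnfrsf12a and Tnfrsf10b, adjusted p = 0.000611 and 0.000591, both with ranges up to 0.978) with no filter. Calls over all genes also rose with no filter, to 289 of 26977 for ischemia against sham and 329 for 0.5 h against ischemia. With the filter they were 14 and 5 of 15128. With each library left out in turn the counts were 2 to 5 at 0.5 h, 3 to 4 at 1 h, 2 to 4 at 1.5 h, 7 to 8 at 3 h, 5 to 7 at 6 h, 4 to 5 at 12 h, 0 to 2 for 0.5 h against ischemia (2 without ischemia replicate 3, where 1156 of 15442 genes were called, against 5 of 15128), 4 to 6 for 3 h against 1.5 h, 2 to 4 for 6 h against 3 h (4 without 3 h replicate 1, where 4515 of 15421 genes were called, against 4223 of 15128, and Tnf was higher at 6 h by 2.72, adjusted p = 0.0165 in a range of 0.0165 to 0.635), 2 for 12 h against 6 h, and 8 to 9 across the 8 groups. The cause of these changes was not tested.

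Of 2373 alternatives for single genes of the 10, 2308 kept their direction and side of the threshold, 55 lost a call, 10 gained one and 0 reversed. Removing duplicates or adding multiply mapped reads changed 0. Same-numbered libraries of different groups had a median correlation of -0.0066 in their deviations (84 pairs, 6 over 0.1), and 6 of 24 libraries correlated best with their own number. No pairing by number was thus visible, though a weak one could go unseen. With the replicate block 2 calls were lost, Tnfsf9 at 0.5 h (adjusted p = 0.0647) and 1 h (0.0537), within the ranges given for it. Library totals in place of TMM moved the median of all genes to 0.12 at 0.5 h, 0.23 at 12 h and 0.15 for 12 h against 6 h. Of genes called, 1629 of 1859 were then higher at 0.5 h (1124 of 1802 with TMM), 1162 of 1423 at 1 h (1129 of 1645), 4079 of 5308 at 12 h (2551 of 4807) and 1768 of 2190 for 12 h against 6 h (982 of 1992). Tnf and Tnfsf9 had 2 to 48 and 4 to 34 reads per library. Across the 8 groups the call of Tnf (adjusted p = 0.0248) was lost with limma-voom (0.0751) and without sham replicate 1 or 2 or 1 h replicate 2 (0.0516, 0.0617 and 0.0525), over a range of 5.67e-07 to 0.0751.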

Other observations

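Several genes of the superfamily lie side by side in the mouse genome. Lta and Ltb lie 1.2 and 3.1 kb from Tnf. Lta, a soluble lymphotoxin, had at most 12 reads over the 3 libraries of any group and was not tested. Tnfsf14 lies 81.7 kb and Cd70 38.2 kb from Tnfsf9, and Tnfsf14 held 0.0735, 0.299 and 0 CPM at 1 h, when Tnfsf9 was called higher. At 6 and 12 h Tnfsf14 had 76 and 35 reads against 2 in sham, and Tnfsf9 was called higher at both times. Tnfsf13 (APRIL) lies 0.5 kb from Tnfsf12, and neither was called against sham at any time. Tnfrsf8 lies 20.3 kb from Tnfrsf1b and was too low to be tested.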
